A study of Arabidopsis thaliana with 6 samples.

Results

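Plants move sugars across membranes with carriers that couple the uptake of a sugar molecule to a proton flowing down its gradient. To describe these carriers in dissected stem tissues, 10 genes encoding sugar proton symporters were followed among the 37051 genes counted. They were chosen by gene family and identifier, at a time when earlier results of these data were known. They comprise the sucrose carriers SUC1 (AT1G71880), SUC2 (AT1G22710), SUC3 (AT2G02860), SUC4 (AT1G09960) and SUC5 (AT1G71890), the hexose carriers STP1 (AT1G11260), STP4 (AT3G19930), STP13 (AT5G26340) and STP14 (AT1G77210), and the polyol and monosaccharide carrier PMT5 (AT3G18830). All 10 were found in the count table. RNA-seq was performed on 3 tissues of the second internode of the Arabidopsis inflorescence stem, with 2 libraries from each: the phloem cap, the pith, and the vascular bundle from which the phloem cap had been left out. They are called cap, pith and bundle from here on, and values of a tissue are given in the order of its libraries (S30 and S31 for the bundle, S32 and S33 for the cap, S34 and S35 for the pith). All plants were of the Col-0 strain, grown at 21 °C for 3 weeks in short days (8 h light, 16 h dark) and then moved to long days (16 h light, 8 h dark), as the sample labels state. The methods of the study give another day length and duration for the short days. Each tissue was collected by laser capture microdissection, in which pieces are excised from frozen sections under a microscope, and its RNA was amplified in 2 rounds before library preparation.

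Sucrose made in leaves is pumped into the companion cells and sieve elements of the phloem by SUC-type symporters, with plasma membrane proton pumps of the AHA family supplying the proton gradient. In sink tissues, sucrose can be cleaved to hexoses, which STP-type carriers take up from the cell wall space. Companion cell loading is the known task of SUC2, whereas SUC4 sits in the vacuolar membrane.

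The 5 SUC genes share coding sequence to differing degrees. SUC1 and SUC5 lie close to each other on chromosome 1, at chr1:27054030-27056464 and chr1:27058381-27060786 on the plus strand of TAIR10, and were identical at 84.3% of aligned coding bases. SUC2, at chr1:8030587-8033156 on the minus strand, was 76.5% identical to SUC1 and 74.4% identical to SUC5, and the other SUC pairs reached 57.9% to 60.3%. Among the 4 STP genes, pairwise identity was 59.6% to 64.5%. In none of these 10 genes except STP1 did any exonic window of 50 bases, the read length, recur elsewhere in the genome, and in STP1 the share was 0.52%. Reads were therefore assignable to single SUC genes despite the identity between them.

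The 3 most closely related SUC genes also shared letters just upstream of their annotated starts, although their levels, given further on, differed widely. The 120 bases before the start of each are printed 5′ to 3′ on the strand of the gene, from the RefSeq copy of TAIR10.1, with the G-box hexamer CACGTG in capitals. The windows are chr1:27053910-27054029 (plus strand) for SUC1, chr1:8033157-8033276 (minus strand) for SUC2 and chr1:27058261-27058380 (plus strand) for SUC5.
SUC1: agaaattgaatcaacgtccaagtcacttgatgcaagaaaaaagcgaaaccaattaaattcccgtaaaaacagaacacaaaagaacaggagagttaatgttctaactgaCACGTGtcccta
SUC2: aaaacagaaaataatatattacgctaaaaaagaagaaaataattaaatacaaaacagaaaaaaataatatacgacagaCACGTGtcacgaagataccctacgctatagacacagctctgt
SUC5: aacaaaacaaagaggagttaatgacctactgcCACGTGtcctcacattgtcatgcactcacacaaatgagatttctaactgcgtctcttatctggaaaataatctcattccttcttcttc
The hexamer began 12, 42 and 88 bases before the start of SUC1, SUC2 and SUC5. It was present in the 250 upstream bases of 6.5% of 27443 protein-coding genes, searched on both strands, and in none of the other 7 symporter genes. In all 3 genes it was part of CACGTGTC, an 8-letter string picked after the sequences had been seen, which was found upstream of 2.1% of genes. The core AAAG bound by Dof factors was present upstream of all 10 symporter genes and of 98.0% of all genes. A match describes these letters and does not show that a factor binds there.

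The 6 libraries held 19324189 to 22571632 counts each. A count of 3, used here as the limit for a gene at 0, corresponded to 0.126 to 0.165 normalized CPM (counts scaled to library size by TMM), and this limit covers counting error only. Nothing in the sample labels says whether the 2 libraries of a tissue came from separate plants, so that the tests measure the spread between these libraries, which may be technical. Differences between tissues are log2 fold changes (log2FC) ± SE from edgeR, with n = 2 libraries per tissue. The tissue labels were checked with marker genes. The 7 phloem markers summed to 1085 and 618 CPM in the bundle, 2673 and 1626 CPM in the cap and 8.70 and 19.2 CPM in the pith, where NAC086 was at 0. The 7 xylem and fibre markers summed to 6512 and 6624 CPM in the bundle, 345 and 1064 CPM in the cap and 263 and 219 CPM in the pith. The cap libraries thus carried transcripts of conducting phloem, and a dissected tissue is a mixture of cell types in which fewer cells of a type and less RNA per cell cannot be told apart. The pollen markers VGD1 and PPME1 summed to 574 and 120 CPM in the cap, against 1.04 to 22.8 CPM in the other 4 libraries. The cap genes CYP83A1 and CYP83B1 were cited by the study from earlier work and used there to check these same libraries. Their result here was thus known beforehand. They summed to 2292 and 2657 CPM in the cap and to 120 to 995 CPM elsewhere. The pith genes ANAC074 and PRX22, cited and used by the study in the same way, summed to 62.7 and 174 CPM in the pith and to 0.773 to 2.23 CPM elsewhere. Of other cell types, 3 cambium markers summed to 440 to 1031 CPM and 3 chlorenchyma markers to 2353 to 5573 CPM over the 6 libraries. Of the chlorenchyma markers, CAB3 was called lower in the pith than in the bundle by edgeR (log2FC -3.21). LHCB3 was called lower by DESeq2 only (log2FC -1.42), and RBCS1A, the largest part of each sum, by neither (log2FC -0.15). The cambium sums of the pith, 575 and 535 CPM, were almost all PXY (574 and 528 CPM). WOX4 and SMXL5 were called lower by edgeR in the pith than in the bundle (log2FC -5.41 and -5.67), and PXY was not. WOX4 passed the count filter through the bundle alone, so that its call could only be a lower one. The starch sheath gene SCR had 8.72 and 10.6 CPM in the bundle, 3.43 and 5.39 CPM in the cap and 19.9 and 26.8 CPM in the pith.

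**Figure D1:**
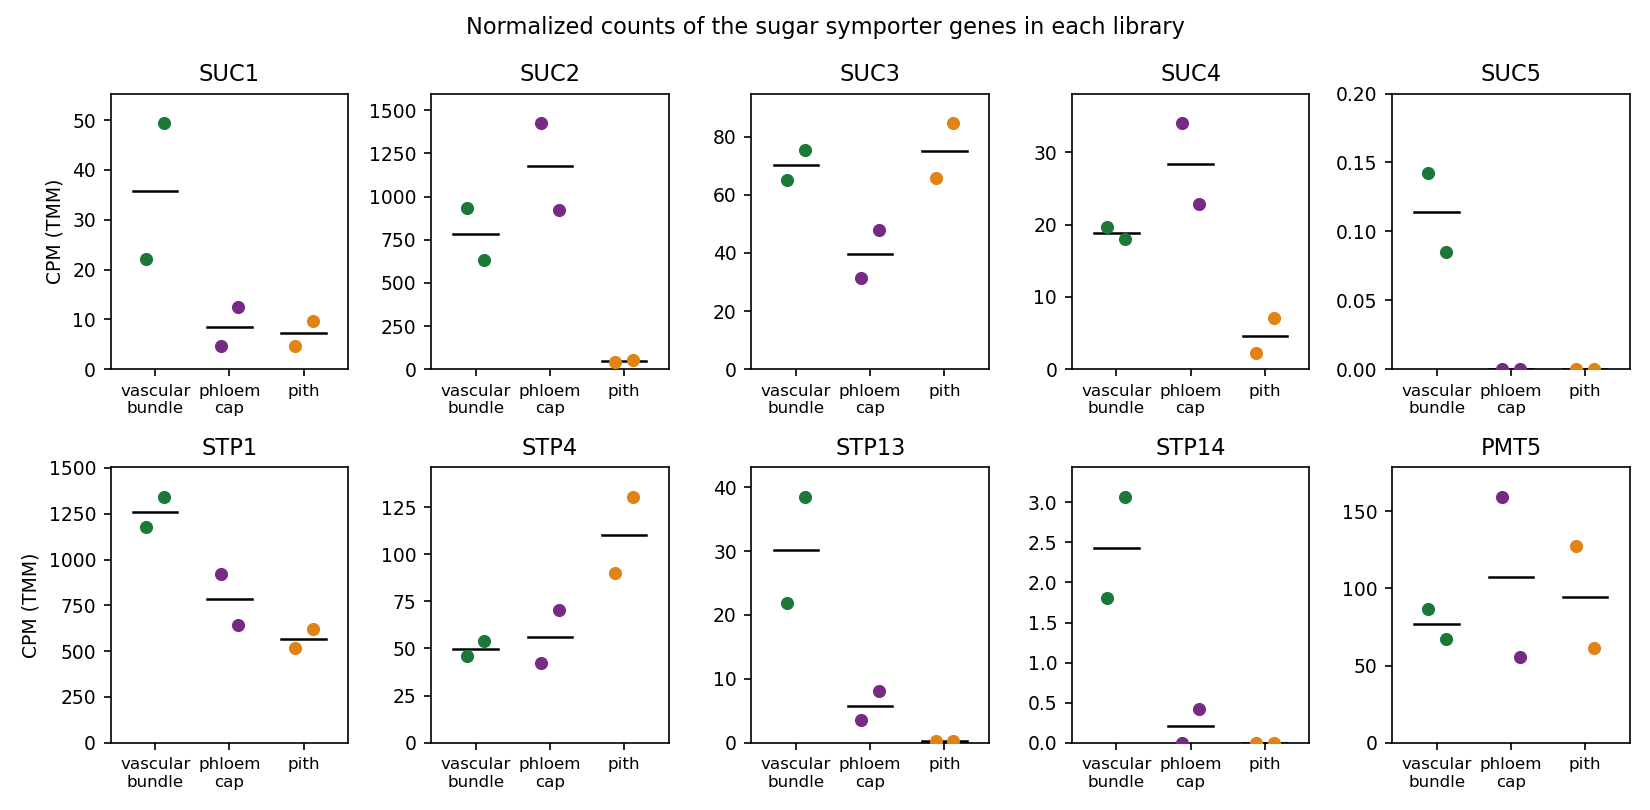
Normalized counts (CPM, scaled by TMM) of the 10 symporter genes in each of the 6 libraries, with 1 panel per gene and its own linear axis from 0. Points are libraries and bars are means of the 2 libraries of a tissue. SUC2 lay at 42.3 and 53.3 CPM in the pith and at or above 633 CPM in the other 4 libraries, and STP13 and STP14 were nearly or fully absent from the pith.

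To compare genes with each other, levels were expressed as TPM, in which counts are divided by gene length and library size. In the bundle, STP1 had a mean of 752 TPM and SUC2 of 649 TPM, and the ranges of their libraries overlapped. PMT5 followed at 63.5 TPM, then STP4 at 40.7, SUC3 at 34.7, SUC1 at 31.7, STP13 at 15.7 and SUC4 at 12.5 TPM, and each neighbouring pair in the run from STP4 to SUC4 overlapped. STP14 reached 1.64 TPM and SUC5 0.10 TPM. The order of the first 2 genes differed in the cap, where SUC2 had a mean of 1064 TPM and STP1 of 508 TPM without overlap. There PMT5 (95.4 TPM) overlapped with STP4 (50.7 TPM), SUC3 (21.6 TPM) with SUC4 (20.5 TPM), and SUC1 (8.39 TPM) with STP13 (3.34 TPM). In the pith, STP1 led alone at 303 TPM, followed by STP4 (80.3 TPM) and PMT5 (69.6 TPM), which overlapped. SUC2 (35.6 TPM) and SUC3 (33.2 TPM) overlapped as well, as did SUC1 (5.68 TPM) and SUC4 (2.75 TPM).

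The makeup of the 5 SUC genes and of the 4 STP genes can be read within a library, where scaling between libraries plays no role. Of the summed TPM of the 5 SUC genes, SUC2 took 92.3% and 85.0% in the bundle, 96.6% and 93.9% in the cap and 48.1% and 44.7% in the pith. SUC3 took 3.81% and 6.0%, 1.26% and 2.87%, and 44.3% and 42.0% in the same order. The ratio of SUC2 to SUC3 TPM was thus 24.2 and 14.2 in the bundle, 76.7 and 32.7 in the cap and 1.09 and 1.06 in the pith. This near equality depended on the length used: with exonic length in place of the length with introns, SUC3 made up 53.8% and 51.5% of SUC transcripts in the pith and SUC2 40.1% and 37.6%. Among the 4 STP genes, STP1 took between 77.6% and 93.8% of the summed TPM in all 6 libraries. The share of STP4 was 4.95% and 5.08% in the bundle, 5.86% and 12.8% in the cap and 19.2% and 22.3% in the pith. STP3 and STP7, which are not among these 4 genes, had means of 201 and 91.4 TPM in the pith. These values are therefore not shares of the whole STP family. Set against each other, STP1 and SUC2 had a TPM ratio of 0.901 and 1.52 in the bundle, 0.463 and 0.499 in the cap and 8.74 and 8.32 in the pith.

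**Figure D2:**
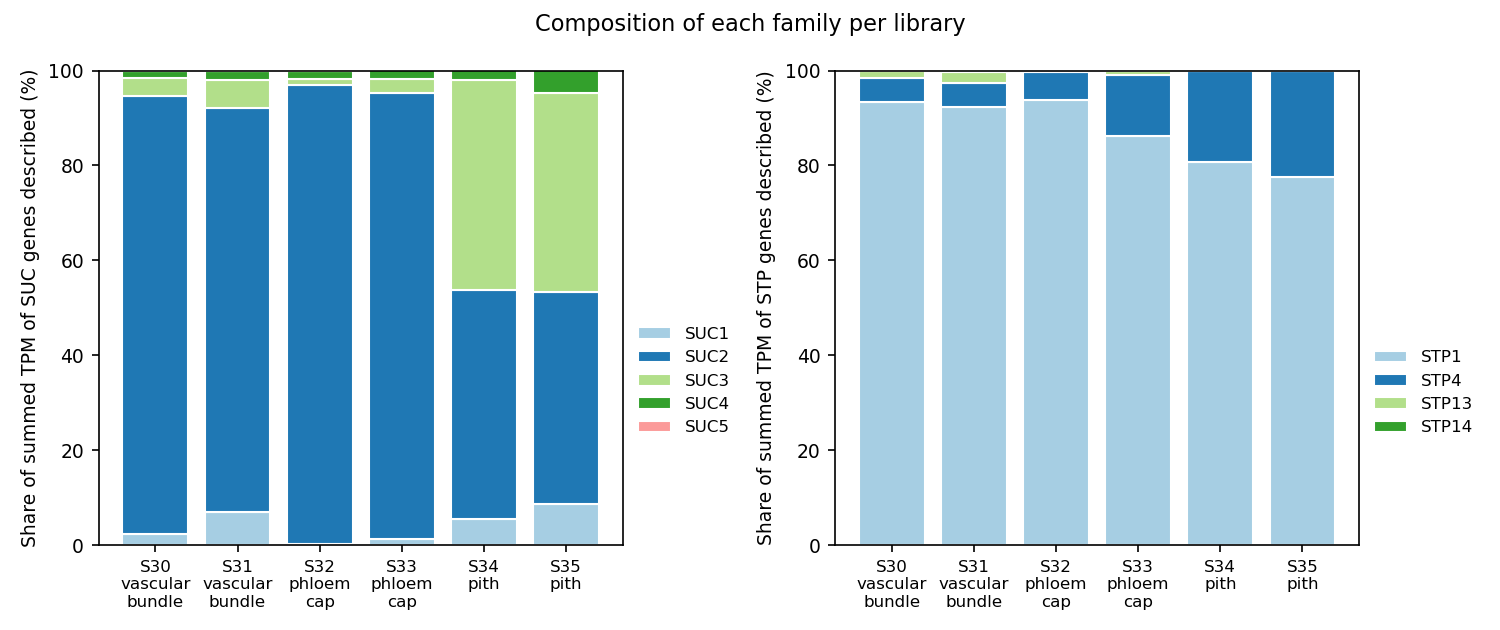
Share (percent, linear axis) of each gene in the summed TPM of the 5 SUC genes (left) and of the 4 STP genes (right), with 1 stacked bar per library. SUC2 took 85.0% to 96.6% of SUC transcripts in the vascular bundle and phloem cap libraries and 44.7% to 48.1% in the pith. STP4 took 19.2% and 22.3% of the transcripts of these 4 STP genes in the pith, and other STP genes are not included.

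The pith was compared with the bundle to ask which symporters differ between a parenchymatous tissue and the conducting tissue. SUC2, STP1, STP13 and STP14 fell in the pith by edgeR, which called none of the 9 genes tested higher, whereas DESeq2 called STP4 higher. Of the 9 genes tested, 4 passed the thresholds for a lower level in edgeR's quasi-likelihood test, and of all 18063 genes tested 10.5% were called lower and 5.44% higher. STP13 and STP14 passed the count filter through the bundle alone, so that their calls could only be lower ones. A call needed an adjusted p under 0.01 and a change of more than 2-fold. The median log2FC of the 9 genes was -2.03, against -0.04 over all genes tested, and stayed -2.03 with STP14 set to the bound given below. Without S31 the number was 2 (SUC2 and STP13). With DESeq2, 6 were lower (these 4, SUC1 and SUC4) and 1, STP4, was higher, against 13.9% and 8.34% of 19575 genes. At an adjusted p of 0.05 edgeR also had 6 lower and 1 higher, against 18.0% and 10.1%, and the libraries of the same numbers of genes lay apart, against 37.6% and 32.2%.

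SUC2 carried 936 and 633 CPM in the bundle and 42.3 and 53.3 CPM in the pith. Both pith libraries lay far below both bundle libraries. The difference was 16.4-fold (log2FC -4.04 ± 0.31, edgeR adjusted p = 0.000345). The phloem markers fell further, with a median log2FC of -6.14 over the 6 of 7 tested, all 6 of which were called lower. APL, CALS7 and FTIP1 passed the count filter through the bundle alone, so that their calls could only be lower ones. SEOR1, SEOR2 and PP2-A1, whose pith counts were high enough for the filter, had log2FC of -6.28, -6.40 and -5.57. In a ratio formed after the values were seen, SUC2 had 4.90 and 3.10 TPM per TPM of summed phloem markers in the pith, 0.935 and 1.2 in the bundle and 0.554 and 0.635 in the cap. The part of residual phloem RNA in the pith level of SUC2 was not tested.

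STP13, a plasma membrane hexose carrier known from pathogen responses, showed the largest fold change among the symporter genes with counts in both tissues. It had 21.9 and 38.5 CPM in the bundle and 0.275 and 0.21 CPM in the pith, where only 5 and 4 counts were recorded. The libraries did not overlap. The level in the pith was 122-fold lower (log2FC -6.93 ± 0.51, edgeR adjusted p = 0.00033). The 4 epidermis markers summed to 82.5 and 103 CPM in the bundle, 9.37 and 22.4 CPM in the cap and 1.87 and 1.73 CPM in the pith, and PDF1 was at 0 in the bundle and the pith. FDH (53.1 and 66.3 CPM) and ATML1 (28.9 and 36.0 CPM) made up most of the bundle sums. LTP1 had 0.52 and 0.43 CPM in the bundle and 7.25 and 0.63 CPM in the cap. In the pith LTP1 had 1.60 and 0.05 CPM, so that it did not follow the order of the sums. The epidermis sums lay in the same order of tissues as STP13 and STP14, described next, as did the xylem and fibre sums given above. The part of either list of markers in the values of STP13 and STP14 was not tested.

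STP14, which transports galactose, was scarce throughout. It had 38 and 72 counts in the bundle, corresponding to 1.80 and 3.07 CPM, and 0 counts in both pith libraries. Against the limit that 3 counts per library allow, its level was at least 15.1-fold lower in the pith. It was called at an edgeR adjusted p of 0.00613, and was at least 19-fold or 11.2-fold lower without bundle library S30 or S31. This call depended on both bundle libraries, since the adjusted p was 0.0285 without S30 and 0.0805 without S31, and it was 0.0242 in a fit over all 6 libraries.

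STP1, a high-affinity hexose carrier, remained among the abundant transcripts of the pith despite its fall. It had 1178 and 1344 CPM in the bundle and 516 and 619 CPM in the pith. The libraries were clearly apart, but the difference of 2.23-fold was close to the fold threshold (log2FC -1.15 ± 0.23, edgeR adjusted p = 0.0097). The call was lost without S30 (adjusted p = 0.0242), S31 (0.0493) or pith library S34 (0.0187), and in the fit over 6 libraries (0.0265). STP1 overlaps AT1G11270 on the opposite strand over 438 bases and strand was ignored in counting, yet that gene had only 4 to 55 counts per library. STP1 is also known from guard cells, and 4 guard cell markers summed to 49.9 and 25.4 CPM in the bundle and 0.496 and 2.21 CPM in the pith, where MYB60 was at 0. Most of the sum was KAT1, with 42.5 and 16.6 CPM in the bundle, and 3 of the 4 were called lower in the pith by edgeR. These 3, FAMA, MYB60 and KAT1, passed the count filter through the bundle alone, so that their calls could only be lower ones. In the cap, where STP1 had 921 and 644 CPM, the 4 markers summed to 108 and 48.3 CPM. The means of the markers FAMA and KAT1 were higher in the cap than in the bundle. Those of MYB60 and SLAC1 were lower, and edgeR called 0 of the 4 there. The part of these markers in the fall of STP1 in the pith was not tested.

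The other 5 genes tested were not called by edgeR in the pith. SUC1, best known from pollen and roots, had 22.1 and 49.4 CPM in the bundle and 4.63 and 9.78 CPM in the pith. All pith values lay below all bundle values (log2FC -2.31 ± 0.51, edgeR adjusted p = 0.0148), and DESeq2 called the gene lower (adjusted p = 5.46e-05). Without a count filter edgeR called it too (adjusted p = 0.0098). The log2FC was -2.75 without S30 and -1.61 without S31.

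The vacuolar carrier SUC4 had 19.7 and 18.1 CPM in the bundle and 2.20 and 7.04 CPM in the pith. The groups did not overlap, but the pith libraries differed widely from each other (log2FC -2.03 ± 0.53, edgeR adjusted p = 0.0271, DESeq2 adjusted p = 0.00156). Leaving out pith library S34 or S35 gave a log2FC of -1.42 or -3.10.

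STP4, a hexose carrier of sink tissues, was the single tested gene whose pith libraries both exceeded the bundle. It had 45.8 and 54.1 CPM in the bundle and 89.9 and 131 CPM in the pith. Its log2FC of 1.14 ± 0.27 did not pass the threshold in edgeR (adjusted p = 0.0185). It did in DESeq2 (adjusted p = 0.000991) and in edgeR without a count filter (adjusted p = 0.00713). The log2FC was 1.39 without S34 and 0.85 without S35. SCR, given above, was also higher in both pith libraries, and its part in the value of STP4 was not tested.

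SUC3, a sucrose carrier with a longer coding sequence than the other SUC genes, had 65.2 and 75.4 CPM in the bundle and 65.8 and 84.7 CPM in the pith. These ranges overlapped, and the log2FC was 0.09 ± 0.24 (edgeR adjusted p = 0.80). PMT5 had 86.9 and 67.4 CPM in the bundle and 127 and 61.6 CPM in the pith. The spread between its pith libraries exceeded the difference between tissues (log2FC 0.29 ± 0.37, edgeR adjusted p = 0.591).

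**Figure D3:**
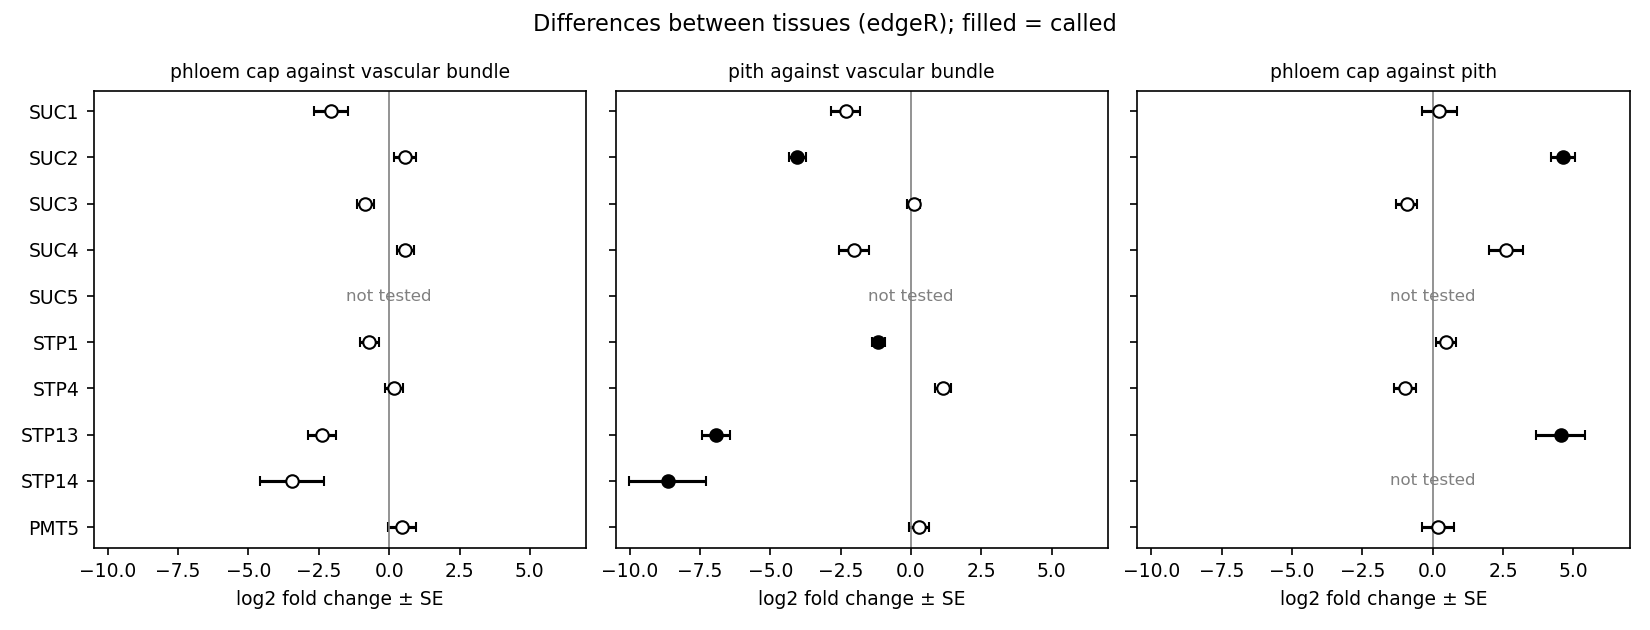
Log2 fold change (x axis) of each symporter gene in the 3 comparisons of tissues, with bars of 1 SE from edgeR. Filled points passed an adjusted p of 0.01 and a fold change of 2, which 4 genes did for the pith against the bundle, 0 for the cap against the bundle and 2 for the cap against the pith. The point of STP14 in the pith is a fitted value against counts of 0 and not a bound.

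The cap was compared with the bundle to ask which symporters differ between the dissected cap, whose libraries held phloem markers as given above, and the rest of the bundle. None of the 9 genes tested was called in either direction by edgeR, where 0.0% of 18528 genes were called higher and 0.0% lower, nor at an adjusted p of 0.05, where 0.146% and 0.351% were. At an unadjusted p below 0.05, edgeR had 0 of the 9 genes higher and 4 lower (SUC1, SUC3, STP13 and STP14), against 1839 higher and 2030 lower among all genes. STP14, with 0 and 10 counts in the cap, passed the count filter through its bundle libraries, so that it could only come out lower. It is among these 4 genes and among the 5 genes with separated libraries given below. DESeq2 called 2 of the genes lower, SUC1 and STP13, and 0 higher, against 3.9% and 2.87% of 20008 genes. In 5 genes both cap libraries lay below both bundle libraries and in 1 gene above, whereas 26.4% and 27.5% of all genes tested were separated in these directions. The median log2FC was -0.70, against 0.04 over all genes tested.

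SUC2 had 1426 and 924 CPM in the cap, and its lower cap library lay between the 2 bundle values of 936 and 633 CPM. The log2FC of 0.57 ± 0.38 was within the spread between libraries (edgeR adjusted p = 0.462). The phloem markers had a median log2FC of 1.23 in the same comparison, with 0 of 7 called by edgeR and 2 called higher by DESeq2. SUC4 had 34.1 and 22.8 CPM in the cap, above its 19.7 and 18.1 CPM in the bundle (log2FC 0.57 ± 0.30, edgeR adjusted p = 0.338).

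STP13 had 3.58 and 8.04 CPM in the cap, against 21.9 and 38.5 CPM in the bundle. The cap values lay well below (log2FC -2.39 ± 0.49), and the edgeR adjusted p was 0.0689 with all libraries, 0.00289 without cap library S33, and 0.000163 in DESeq2. SUC1 had 4.59 and 12.5 CPM in the cap, against 22.1 and 49.4 CPM (log2FC -2.08 ± 0.60, edgeR adjusted p = 0.124, DESeq2 adjusted p = 0.00647). Xylem and fibre markers were low in the same libraries, with a median log2FC of -2.87, 7 of 7 called lower by DESeq2 and 0 by edgeR. Their part in the values of STP13 and SUC1 was not tested.

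STP14 had 0 and 10 counts in the cap and 38 and 72 in the bundle. The edgeR adjusted p was 0.154 (log2FC -3.47 ± 1.13). Without S33 the remaining cap library held no count. STP1 had 921 and 644 CPM in the cap, below its 1178 and 1344 CPM in the bundle (log2FC -0.70 ± 0.34, edgeR adjusted p = 0.305). SUC3 had 31.4 and 47.8 CPM, also below its bundle values of 65.2 and 75.4 CPM (log2FC -0.84 ± 0.30, edgeR adjusted p = 0.176). STP4, at 42.1 and 70.4 CPM, and PMT5, at 159 and 55.3 CPM, enclosed or overlapped their bundle levels, with edgeR adjusted p-values of 0.831 and 0.667.

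The cap and the pith were compared directly. SUC2 and STP13 were higher in the cap. Of the 8 genes tested, 2 were called higher and 0 lower by edgeR, where 8.33% of 18201 genes were higher and 4.34% lower. STP13 passed the count filter through the cap alone, so that its call could only be a higher one. Of all calls in this comparison 65.8% were higher, and 77.1% when libraries were scaled by their totals instead of TMM. DESeq2 called 3 genes higher, the third being SUC4, and 0 lower, against 12.6% and 7.35% of 20375 genes. At an adjusted p of 0.05 edgeR had these 3 higher and 0 lower, against 16.5% and 9.77%. In 4 genes the cap libraries lay above the pith libraries and in 2 below, against 35% and 29.9% of all genes tested. The median log2FC was 0.35, against 0.07 over all genes tested. This comparison shares its libraries with the other comparisons and is not independent of them.

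From the values given above, SUC2 was 24.5-fold higher in the cap than in the pith (log2FC 4.62 ± 0.43, edgeR adjusted p = 0.000323). STP13 was 23.3-fold higher (log2FC 4.54 ± 0.86, edgeR adjusted p = 0.00605), and this call was lost without S33, with an adjusted p of 0.0874 at a log2FC of 3.82. SUC4 had both cap libraries above both pith libraries, with a log2FC of 2.61 ± 0.60 and an edgeR adjusted p of 0.0143, just short of the threshold. It was called by edgeR in the fit over 6 libraries (adjusted p = 0.00865) and with scaling by library totals (0.00728). SUC3 and STP4 had both cap libraries below both pith libraries, at log2FC of -0.93 ± 0.36 and -0.98 ± 0.38, and edgeR adjusted p-values of 0.0916 and 0.0975. SUC1, STP1 and PMT5 had log2FC of 0.24, 0.46 and 0.18 and edgeR adjusted p-values of 0.826, 0.402 and 0.852.

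SUC5, known from the endosperm of seeds, was too low to test in any comparison. It had 3 and 2 counts in the bundle and 0 in the other 4 libraries. These counts are at or under the limit of 3 counts, and differences between tissues were not detectable at this depth. Its nearby and closest relative SUC1 had 84 to 1158 counts per library.

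The genes whose log2 CPM followed SUC2 most closely were listed by Pearson's r over the 6 libraries among 10830 genes with a mean of at least 10 CPM, as a description. The first was the amino acid permease gene AAP2 (r = 0.9996), with 3771 and 1872 CPM in the bundle, 5657 and 3298 CPM in the cap and 43.6 and 56.9 CPM in the pith. It was followed by the flavonol glycosyltransferase gene UGT78D1 (0.999), AT3G59680 (0.999), AT3G21600 (0.9987) and AT1G73630 (0.9986). The 6 points share their libraries and come from only 3 tissues.

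The wider gene families around these symporters were described from fixed lists. Of the 19 other SUC, STP and PMT genes, 8 could be tested in the pith against the bundle, where 2 rose and 2 fell in edgeR (median log2FC -0.77). Over all genes tested, 5.44% rose and 10.5% fell. STP3, a hexose carrier, rose from 39.1 and 32.8 CPM in the bundle to 319 and 183 CPM in the pith (log2FC 2.80, edgeR adjusted p = 0.00142). STP7 rose from 13.4 and 16.8 to 110 and 154 CPM (log2FC 3.13, edgeR adjusted p = 0.000583), and it overlaps 2 genes on the opposite strand. In both, the pith libraries lay several-fold above all other libraries. PMT4 fell from 189 and 213 CPM to 74.3 and 82.7 CPM (log2FC -1.36), and PMT6 from 25.2 and 26.7 CPM to 3.64 and 1.84 CPM (log2FC -3.25). The edgeR adjusted p of PMT4 was 0.00471, but 0.0164 without S30 and 0.0307 without S31, and that of PMT6 was 0.00176, but 0.041 in the fit over 6 libraries. In the cap against the bundle, 0 of 7 tested were called by edgeR and 1, PMT4, was lower in DESeq2, which called 3.9% of all genes lower. No count was recorded in any library for 7 of the 19 genes, namely SUC7, SUC8, SUC9, STP2, STP10, PMT1 and PMT2. In SUC7, SUC8, PMT1 and PMT2, 6.03% to 17.3% of exonic read-length windows recur in the genome, and reads from these were not counted.

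Among the 11 plasma membrane proton pump genes, AHA1 was the most abundant by mean CPM, with 366 and 358 CPM in the bundle, 480 and 296 CPM in the cap and 231 and 306 CPM in the pith. It was called in no comparison. AHA3, a pump known from companion cells, had 103 and 56.6 CPM in the bundle, 251 and 140 CPM in the cap and 0.77 and 2.89 CPM in the pith. It fell in the pith (log2FC -5.44, edgeR adjusted p = 0.00134) and was the 1 gene called by edgeR of 9 tested there, with a list median of 0.18. Of all genes tested, edgeR called 10.5% lower and 5.44% higher. DESeq2 called AHA4 higher in addition, with 4.22 and 5.12 CPM in the bundle and 11.8 and 14.3 CPM in the pith. Of all genes, DESeq2 called 8.34% higher. The pump gene with the next highest mean, AHA8, had 258 and 66.3 CPM in the cap and 7.44 to 15.0 CPM elsewhere. Against the bundle, edgeR did not call it (log2FC 4.23, adjusted p = 0.0615), while DESeq2 did (adjusted p = 2.32e-10). Its log2FC in edgeR was 2.94 without S32 and 4.89 without S33. STP11, known as a pollen tube carrier, had 338 and 43.9 CPM in the cap and 0.52 to 14.4 CPM elsewhere, and was not called by edgeR or by DESeq2 against the bundle. The pollen markers given above were high in the same 2 libraries, and their part in these values was not tested.

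Of 14 genes of the invertase and sucrose synthase families, 11 were tested in the pith against the bundle. Of these, 2 rose and 4 fell in edgeR (median log2FC -1.80), against 5.44% and 10.5% of all genes tested. The genes were listed by family, and activity on sucrose was not measured. The vacuolar invertase VI2 rose from 52.2 and 42.7 CPM to 251 and 226 CPM (log2FC 2.33), and the cell wall invertase family gene CWINV6 rose from 0.24 and 0.30 CPM to 7.11 and 2.47 CPM. All 4 that fell were sucrose synthases. SUS3 and SUS4 passed the count filter through the bundle alone, and CWINV6 through the pith alone. The direction of these calls was thus set by the filter. SUS1 fell from 68.9 and 61.0 CPM to 16.9 and 20.5 CPM (log2FC -1.80), SUS4 from 7.67 and 6.78 to 0.06 and 0.11 CPM, SUS6 from 16.7 and 9.09 to 0.61 and 0.79 CPM, and SUS3 from 4.41 and 2.99 CPM to 0, at least 22.9-fold lower against the limit of 3 counts per library. The edgeR adjusted p was 0.000868 for VI2 and 0.000858 for SUS4, which held with each library left out. It was 0.00833 for CWINV6 (0.0556 without S30, 0.0477 without S31, 0.0241 in the fit over 6 libraries and 0.0107 with library totals), 0.00244 for SUS1 (0.0175 without S30 and 0.0113 in the fit over 6 libraries), 0.00161 for SUS6 (0.0169 without S30) and 0.00341 for SUS3 (0.0301 without S30 and 0.0107 without S31).

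Of the 10 vacuolar and plastid sugar transporters, 9 were tested in the pith against the bundle. Of these, 2 rose and 0 fell in edgeR (median log2FC 0.21), against 5.44% and 10.5% of all genes tested. ERD6 rose from 20.2 and 32.2 CPM to 318 and 248 CPM (log2FC 3.43, edgeR adjusted p = 0.000622), and the plastid glucose transporter gene pGlcT from 93.8 and 111 to 239 and 233 CPM (log2FC 1.2, edgeR adjusted p = 0.00759). The call of pGlcT was lost without S30 (adjusted p = 0.0626) or S31 (0.0305), with scaling by library totals (0.0165) and in the fit over 6 libraries (0.0103). PMT4, AHA4, AHA8 and pGlcT overlap a gene on the opposite strand, and strand was not used in counting. In the cap against the bundle, 0 genes of these 4 lists were called by edgeR, as was the case for all genes. DESeq2 called 3 genes of these lists higher and 3 lower, against 2.87% and 3.9% of all genes.

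**Figure D4:**
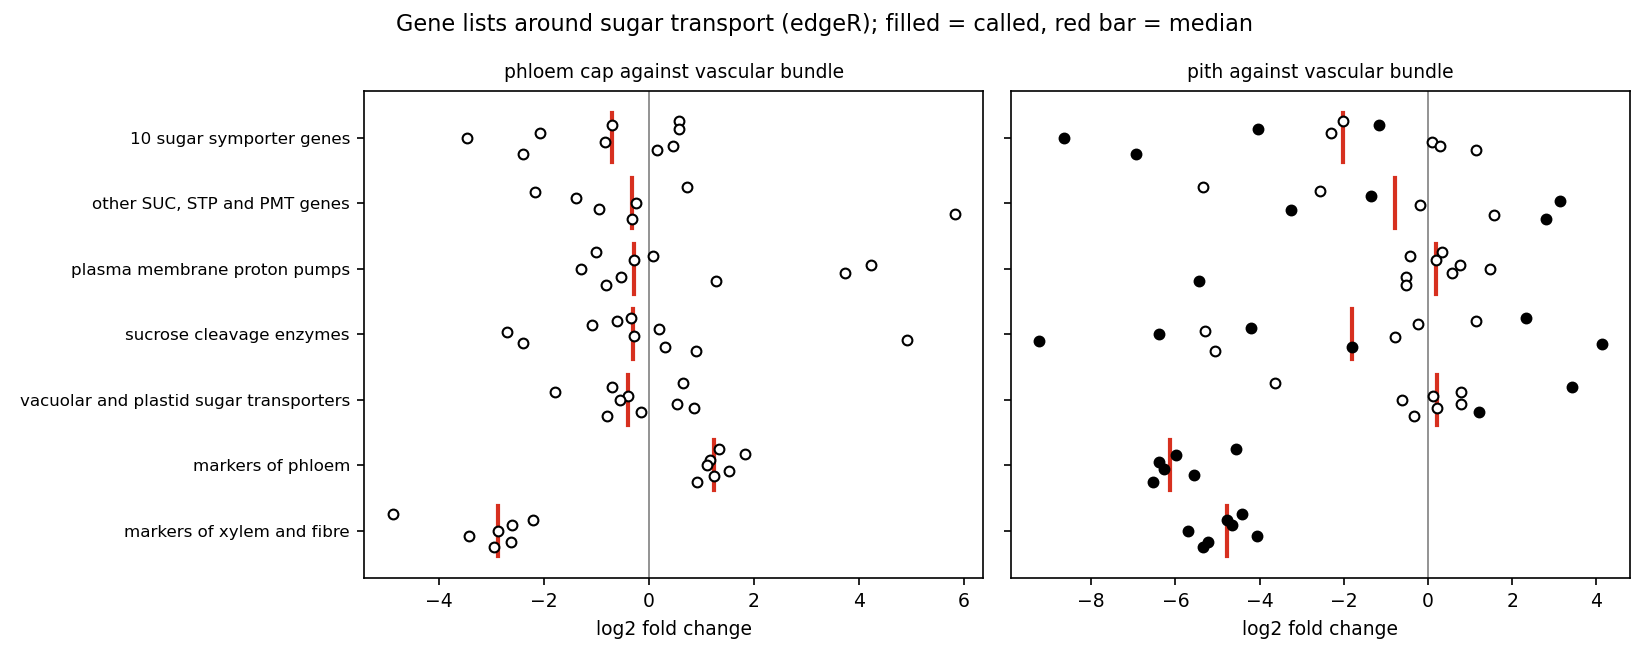
Log2 fold changes (x axis) of the genes tested in each list, for the phloem cap (left) and the pith (right) against the vascular bundle. Each point is a gene, filled where edgeR called it, and the red bar is the median of the list, which for the 10 symporter genes was -0.70 for the cap and -2.03 for the pith.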

How the data were processed

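RNA was measured in 6 libraries, 2 each of vascular bundle without phloem cap (S30, S31), phloem cap (S32, S33) and pith (S34, S35), grouped by their labels. The authors deposited raw counts per gene. They aligned untrimmed single-end reads of 50 bases to TAIR10 with STAR 2.5.0a, kept unique alignments, and counted reads on Araport11 genes in R 3.5.0 with introns included and strand ignored, so that overlapping and antisense genes cannot be separated. Of the columns with counts, 0 were unused. All 37051 identifiers were found in the TAIR10.1 annotation, from which coordinates, windows of 50 bases and upstream sequences were taken.

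Using R 4.3.3, genes were filtered (filterByExpr), scaled by TMM and tested with edgeR 4.0.16 (glmQLFit, robust, and glmQLFTest, two-sided) on the 4 libraries of each comparison, and p-values were adjusted over all genes tested (Benjamini-Hochberg). Each SE was derived from the F statistic of its test (|log2FC| / √F). The thresholds of the study were used, an adjusted p under 0.01 with a change of more than 2-fold. DESeq2 1.42.0, other scalings and filters, 1 fit over 6 libraries, an adjusted p of 0.05, exonic length and leaving out each library were alternatives. TPM used gene length with introns. Python 3.11.15 made summaries. The testing script was checked on simulated data. All 10 symporter genes were described. Of the other lists, the 3 most abundant genes and those called against the vascular bundle could be named. Members and lists were chosen with earlier results of these data known.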

Additional observations from a re-analysis of the deposited data

How the results depend on the processing

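With 2 libraries per tissue, numbers of calls moved with several settings. In the cap against the bundle, edgeR called 0 genes, but 97 without a count filter, 92 at an adjusted p of 0.05 and 1 to 1943 with 1 library left out (675 without S32 and 1943 without S33), and DESeq2 called 1356. Of the symporter genes it called 0, DESeq2 called 2, and 0 to 2 were called with 1 library left out. In the pith against the bundle, 2870 genes became 4352 with DESeq2, 3705 without a count filter, 5065 at an adjusted p of 0.05 and 1431 to 5542 with 1 library left out. The 4 symporter genes called became 7 with DESeq2 or at 0.05 and 6 without a count filter, of which 1 was higher and 5 lower. They became 2 in 1 fit over 6 libraries and 2 to 5 with 1 library left out. In the cap against the pith, 2307 genes became 4066 with DESeq2, 3561 without a count filter, 4780 at 0.05 and 1798 to 2098 with 1 library left out, and 2 symporter genes became 1 to 3.

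With 1 library left out, signs of uncalled differences turned for STP4 (-0.27 to 0.48), AHA1 (-0.30 to 0.38) and PMT5 (-0.50 to 1.02) in the cap against the bundle, for SUC3 (-0.10 to 0.27) and PMT5 (-0.32 to 0.72) in the pith against the bundle, and for SUC1 (-0.67 to 0.88) and PMT5 (-0.81 to 0.78) in the cap against the pith. In those fits the lone library was assumed to vary like the other tissue. Scaling by library totals moved the median log2FC of all genes by 0.14, -0.21 and 0.34 in the order of these comparisons and turned SUC3 in the pith to -0.11. The cause of these changes was not tested. Of the 10 ranks by TPM in the pith, 6 held with exonic length, and 8 to 10 with 1 library left out, against 6 to 8 in each of the other tissues. SUC5 and STP14 had no counts in the pith, so that their ranks there were a tie and could not move. No paired analysis was possible because the sample labels number the libraries S30 to S35 and give no replicate number shared between tissues.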
